A study of Astyanax mexicanus with 6 samples.

Results

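Genes of the Hedgehog signaling pathway were compared between embryonic fibroblast lines of surface fish and of Pachón cavefish of *Astyanax mexicanus*. The genes were chosen by symbol: 9 names were sought, *shha*, *shhb*, *ptch1*, *smo*, *gli1*, *gli2a*, *gli3*, *hhip* and *sufu*. Of these, 8 matched 1 row each among the 27420 genes listed. The symbol *shha* matched no row, and it is not analysed here.

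The surface fish line is called SEF and the Pachón cavefish line PEF. RNA of each line was sequenced as 3 libraries, made with a stranded mRNA kit, and nothing in the labels says whether they came from separate cultures. Both lines are labelled as wild type, were kept under the same growth protocol without CO2, and have no treatment named for the sequenced cells. The lines were made from pooled early embryos, as individual clones kept for many passages, so each population is represented by 1 line and the spread between libraries does not cover differences between fish or between clones. A difference between populations, between clones and between culture histories cannot be told apart in this design.

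Hedgehog proteins are secreted signals that pattern the neural tube, somites, limbs and gut of vertebrate embryos. Without a ligand, the receptor Patched holds the membrane protein Smoothened inactive, and Gli transcription factors are restrained by Sufu and by kinases, in part as truncated repressors. With a ligand bound to Patched, Smoothened moves into the primary cilium and full-length Gli proteins reach the nucleus, where they switch on *ptch1*, *gli1* and *hhip*, which are read as targets of the pathway in many tissues. Mesenchymal cells, the kind that fibroblasts belong to, are known mainly as receivers of the signal, while epithelia, notochord and floor plate are known as its sources.

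Reads counted on genes numbered between 33381563 and 39156850 in SEF and between 36790663 and 42506026 in PEF. PEF replicate 1 stood apart from the other PEF libraries: a chi-square statistic of raw counts over genes, per degree of freedom, was 130 and 160 against them, and 16.7 between PEF replicates 2 and 3. Within SEF it lay between 42.6 and 85.5. Fibroblast markers were present in both lines, with a summed level of 8545 to 11980 TPM (the share of a transcript in a library, allowing for gene length) in SEF and 9000 to 15371 TPM in PEF over 14 genes. All 14 were tested and 10 were called, 5 higher and 5 lower in PEF. The 12 epithelial marker rows summed to 3030 to 4182 TPM in SEF and 8141 to 9343 TPM in PEF, almost all of it from keratin genes, whereas *epcam*, which marks epithelia, had at most 3 reads in a library. Of 6 tested epithelial rows, 4 were called higher in PEF, 0 lower and 2 were not called, beside 30.4% of all tested genes called higher. Muscle markers summed to 179 to 337 TPM in SEF and 31.1 to 45.0 TPM in PEF over 8 rows, mostly from *acta1b*. Of 4 tested muscle rows, 3 were called lower in PEF and 1 was not called. *myod1* had 0 counted reads in all libraries, although its listed TPM was above 0 in PEF. Neural markers summed to 48.8 to 64.4 TPM in SEF and 6.83 to 10.3 TPM in PEF over 10 rows. *elavl4* and *sox2* had 0 reads in all libraries, while all 4 tested neural rows were called, 3 lower and 1 higher in PEF. Among all tested genes, 63.5% were called, 30.4% higher and 33.1% lower in PEF. Blood marker rows summed to 51.4 to 64.7 TPM in SEF and 26.6 to 33.2 TPM in PEF, endothelial rows to 98.9 to 141 TPM and 39.0 to 43.1 TPM, and pigment cell rows to 1.46 to 2.72 TPM and 5.74 to 13.7 TPM. Nearly all of the blood sum came from 1 row of *runx1*, at 56.8 TPM in SEF and 27.0 TPM in PEF on average, which was called lower in PEF, as was *lcp1* with 19 to 37 reads in SEF and 0 to 7 in PEF. *ptprc* had 5 to 20 reads in SEF and 4 to 9 in PEF. The endothelial sum came mostly from *kdrl* and *fli1a*, both called lower in PEF, and the pigment cell sum from 1 row of *tyr*, called higher. *gata1a*, *cdh5* and *sox10*, markers of red blood cells, endothelial cells and neural crest-derived pigment cells, had 0 reads in all libraries. The part of these markers in the differences below was not tested. In bulk RNA, fewer cells of a type and less RNA per cell cannot be told apart.

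Of the 8 genes, *gli2a*, *gli3* and *smo* were higher in PEF, *hhip* was lower, *ptch1* and *sufu* did not pass the test, and *gli1* and *shhb* had too few reads to be tested. Counts were compared with edgeR's quasi-likelihood test over all 16670 genes that passed its filter on low counts, and a gene was called when its Benjamini-Hochberg adjusted p was under 0.05. That gave 4 calls among the 6 tested genes, 3 higher and 1 lower in PEF. Of all tested genes, 63.5% were called in either direction, 30.4% higher and 33.1% lower in PEF, so a count of 4 of 6 lies near the background and is not a result about the pathway as a whole. The median log2 fold change, PEF over SEF, of the 6 genes was 0.46 (SE stands for standard error where such a value is given), and that of all tested genes was -0.02. SEF and PEF libraries did not overlap in CPM (counts scaled to library size) for 5 of the 6 genes, against 70.8% of all tested genes. What follows is therefore about single genes and their sizes of change.

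**Figure D1:**
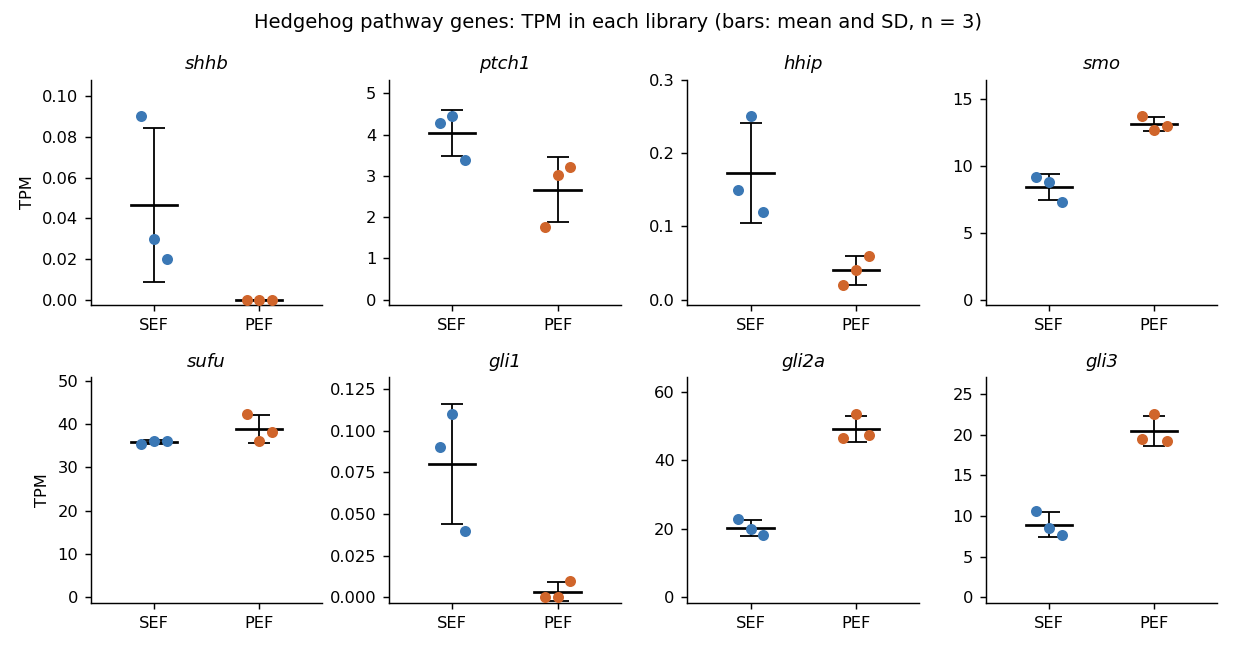
Level in TPM (vertical axis, linear, a separate scale for each gene) of the 8 Hedgehog pathway genes in the 3 SEF and 3 PEF libraries. Points are libraries, and bars are the mean and SD (n = 3); *gli2a*, *gli3* and *smo* sit higher in all PEF libraries, *hhip* sits lower, and *shhb* and *gli1* lie at or under 0.11 TPM everywhere.

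Ligand RNA was scarce in both lines. *shhb* (ENSAMXG00000008367), one of the Sonic hedgehog genes of teleosts, had 3, 3 and 2 reads in SEF replicates 1, 2 and 3 and 0 in each PEF library. A count of 0 allows up to 3 reads in a library, so both lines lay at or under that limit and no fold is given. A row named *shh* (ENSAMXG00000034481), which is not among the 9 names, showed a lone 1 read, in PEF replicate 3, and the Desert hedgehog gene *dhh* had 0 reads in all 6 libraries. The markers of notochord and floor plate, where Sonic hedgehog is made in the embryo, summed to 0.96 to 1.63 TPM in SEF and 2.43 to 5.90 TPM in PEF over 7 rows. Only 2 of these rows were tested, and 1 was called higher and 1 lower in PEF, beside 63.5% of all genes called. Among the untested rows, *foxa2* and *tbxta*, named after their values were seen, had at most 1 and 2 reads in a SEF library and 0 in PEF. They do not stand for the list, whose summed level was higher in PEF.

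The other measured ligand genes were the Indian hedgehog pair, and each line carried reads mainly from a different one. *ihha* (ENSAMXG00000002089) had 38, 69 and 40 reads in SEF and 0 in every PEF library. Its level was thus at least 16.2-fold lower in PEF, with the floor of 3 reads per PEF library (edgeR adjusted p = 0.000334). *ihhb* (ENSAMXG00000013154) had 74, 39 and 42 reads in PEF replicates 1, 2 and 3 and 7, 4 and 7 in SEF, a log2 fold change of 3.10 (SE 0.45, edgeR adjusted p = 0.000830). Each gene of the pair passed the filter on low counts only through the line where it was higher. Neither was tested where at least 10 reads were required in every library. Of the TPM summed over both genes, *ihha* held 88.0% and 95.4% in SEF replicates 1 and 2, all of it in SEF replicate 3, and none in the PEF libraries. The TPM table lists *ihhb* at 0 in SEF replicate 3, where the count table has 7 reads. The summed level was 1.95 ± 0.621 TPM in SEF and 1.27 ± 0.335 TPM in PEF (SD, n = 3 each), and was not tested, with the PEF libraries at 1.65, 1.16 and 1.01 TPM overlapping the lowest SEF library at 1.35 TPM.

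**Figure D2:**
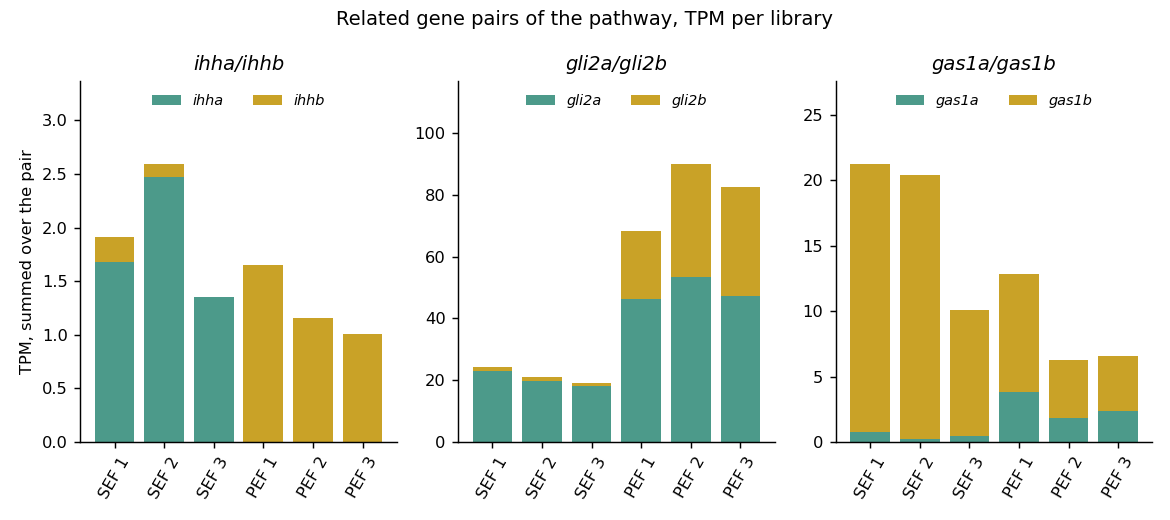
TPM (vertical axis, linear from 0) of 3 related gene pairs in each of the 6 libraries, stacked so that a bar's height is the sum of the pair. *ihha* fills the SEF bars and *ihhb* the PEF bars, *gli2b* adds 32.1% to 42.5% of the pair in PEF, and *gas1a* takes a larger share in PEF.

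Of the genes that act on ligand release and spreading, 4 of 5 tested were called, 2 higher and 2 lower in PEF, where 63.5% of all genes were called. The 2 lower genes, *scube2* and *disp3*, passed the filter on low counts only through their SEF reads. With at least 10 reads required in every library, 3 were tested and 2 called, beside 7700 of 13388 of all genes. Of these, 2 were higher and 0 lower in PEF. *scube3*, which encodes a secreted protein of a family that helps lipid-modified Hedgehog leave the cell, had 65, 78 and 68 reads in SEF and 618, 718 and 730 in PEF. That is a 9.82-fold higher level in PEF (log2 fold change 3.30, SE 0.12, edgeR adjusted p = 2.50e-06). Its relative *scube2* had 17 to 31 reads in SEF and 4 or 5 in PEF (log2 fold change -2.21, SE 0.36, edgeR adjusted p = 0.00137). *disp1*, the transporter that exports the ligand, was the most abundant gene of this group in both lines, at 17.98 ± 2.17 TPM in SEF and 24.4 ± 4.19 TPM in PEF (SD, n = 3 each), and the log2 fold change was 0.51 (SE 0.13, edgeR adjusted p = 0.0112). *disp3* had 22 to 45 reads in SEF and 0 in PEF, at least 11.9-fold lower. *hhat*, the acyltransferase that adds a fatty acid to the ligand, had a log2 fold change of 0.24 (SE 0.19, edgeR adjusted p = 0.295).

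The receptor *ptch1* (ENSAMXG00000014560) was measured at 4.27, 4.44 and 3.39 TPM in SEF replicates 1, 2 and 3 and at 1.76, 3.01 and 3.21 TPM in PEF. The TPM values of the lines lay close to each other without overlapping, and in CPM they overlapped. The log2 fold change was -0.47 (SE 0.26, edgeR adjusted p = 0.157), so no difference was detected. PEF replicate 1, with 329 reads where the other PEF libraries had 723 and 714, set most of this value, which was -0.20 without that library (edgeR adjusted p = 0.235).

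*hhip* (ENSAMXG00000032857) encodes a membrane protein that binds Hedgehog ligands and keeps them from Patched. It had 16, 36 and 18 reads in SEF and 3, 6 and 4 in PEF, and the lines did not overlap. The level was low in both, at 0.173 ± 0.0681 TPM in SEF and 0.040 ± 0.020 TPM in PEF (SD, n = 3 each). The log2 fold change of -2.37 (SE 0.43, edgeR adjusted p = 0.00236) corresponds to a 5.18-fold higher level in SEF. Leaving out any 1 library kept it between -2.62 and -2.01. The gene passed the filter on low counts only through its SEF reads, and it was not tested where at least 10 reads were required in every library.

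Among coreceptors, which bind the ligand together with Patched, the largest difference of the whole pathway list by fitted fold change in the direction of PEF was that of *cdon* (ENSAMXG00000019609). It had 952, 901 and 1401 reads in SEF and 33263, 47494 and 39906 in PEF. Per length this is 13.4 ± 2.76 TPM in SEF and 452 ± 39.8 TPM in PEF (SD, n = 3 each), a 37.0-fold difference (log2 fold change 5.21, SE 0.23, edgeR adjusted p = 4.65e-06). Its relative *boc*, named after its values were seen, lay at 33.8 ± 13.1 TPM in SEF and 21.98 ± 10.8 TPM in PEF (SD, n = 3 each), with overlapping libraries and a log2 fold change of -0.54 at an edgeR adjusted p of 0.242. In SEF, *boc* was thus the more abundant of the pair by mean, and in PEF *cdon* was.

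The membrane-anchored coreceptor *gas1b* had 416, 494 and 267 reads in SEF and 196, 131 and 111 in PEF (log2 fold change -1.41, SE 0.32, edgeR adjusted p = 0.00687). *gas1a*, chosen here after its values were seen as the partner of *gas1b*, had 6 to 13 reads in SEF and 34 to 63 in PEF (log2 fold change 2.17, SE 0.44, edgeR adjusted p = 0.00404). Its share of the pair's TPM was 1.03% to 4.84% in SEF and 28.6% to 35.5% in PEF. Of the 11 tested genes of reception and coreceptors, 8 were called, 2 higher and 6 lower in PEF, beside 63.5% of all genes called and 33.1% lower, and the median log2 fold change was -1.41. With at least 10 reads required in every library, 5 were tested and 2 called, 1 in each direction, beside 7700 of 13388 of all genes.

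*smo* (ENSAMXG00000029788), which encodes Smoothened, the membrane protein that passes the signal inward, was higher in PEF. Its level was 9.19, 8.79 and 7.30 TPM in SEF and 13.7, 12.7 and 13.0 TPM in PEF, with a clear gap between the lines. The log2 fold change was 0.71 (SE 0.10, edgeR adjusted p = 0.000800), a 1.64-fold difference. It was lost only when the test was made against a 2-fold change, that is, against a log2 fold change of 1. Within a library, *smo* exceeded *ptch1* by 1.98-fold to 2.15-fold in TPM in SEF and by 4.05-fold to 7.78-fold in PEF, the highest value being that of PEF replicate 1.

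Of the 11 tested genes of Smoothened and its partners, *smo* among them, 7 were called (63.6%, beside 63.5% of all genes), 5 higher and 2 lower in PEF, and 4 partners are described here. The kinase genes *ulk3* and *stk36*, both linked to Gli activity, were higher in PEF. *ulk3* had 213, 218 and 175 reads in SEF and 638, 678 and 637 in PEF (log2 fold change 1.69, SE 0.15, edgeR adjusted p = 7.38e-05), and *stk36* had 287 to 350 and 485 to 608 reads (log2 fold change 0.85, SE 0.12, edgeR adjusted p = 0.000781). The beta-arrestin gene *arrb2a* had a log2 fold change of 0.88 (SE 0.15, edgeR adjusted p = 0.00172). *gnai2b*, an inhibitory G protein subunit, was 16.9-fold lower in PEF, with 162 to 272 reads in SEF and 6 to 20 in PEF (log2 fold change -4.08, SE 0.39, edgeR adjusted p = 0.000107). Its related gene *gnai2a*, named after its values were seen, was far more abundant, at 101 ± 15.5 TPM in SEF and 82.5 ± 10.9 TPM in PEF (SD, n = 3 each), and was not called (log2 fold change -0.20, edgeR adjusted p = 0.267).

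Of the 4 Gli transcription factors, 3 passed the filter on low counts and were called higher in PEF, as were 30.4% of all tested genes, while *gli1* had more reads in SEF. *gli2a* (ENSAMXG00000043175), one of the Gli2 genes of teleosts, was measured at 22.9, 19.9 and 18.2 TPM in SEF and 46.4, 53.5 and 47.4 TPM in PEF. The lowest PEF library thus lay far above the highest SEF library. The log2 fold change was 1.43 (SE 0.13, edgeR adjusted p = 8.80e-05), a 2.7-fold difference, and leaving out any 1 library kept it between 1.35 and 1.52.

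*gli3* (ENSAMXG00000002477), known mostly as a repressor when no ligand is present, was measured at 10.7, 8.48 and 7.68 TPM in SEF and 19.5, 22.5 and 19.2 TPM in PEF. The lines were again far apart, at a log2 fold change of 1.27 (SE 0.15, edgeR adjusted p = 0.000285) and a 2.41-fold difference. *gli2a* and *gli3* kept nearly the same proportion to each other: the ratio of their TPM lay between 2.15 and 2.37 in SEF and between 2.37 and 2.47 in PEF.

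*gli1* (ENSAMXG00000041979), which encodes an activator and is itself a target of the pathway, was close to absent in both lines. It had 11, 17 and 6 reads in SEF and 0, 0 and 1 in PEF. These 34 reads against 1 give a 33.8-fold higher level in SEF, with an exact 95% interval for counting error from 5.67 to 1373. The gene did not pass the filter on low counts. Without that filter its edgeR adjusted p was 0.00300. It was also tested and called when SEF replicate 3 or any PEF library was left out, with edgeR adjusted p-values between 0.00226 and 0.0133. With a library left out the filter asks for fewer libraries, and the gene passed it through its SEF reads alone. These calls are therefore not independent support.

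*gli2b* (ENSAMXG00000029155), the second Gli2 gene of teleosts and not among the 9 names, differed most within the family. It had 176, 173 and 139 reads in SEF and 3174, 6432 and 5790 in PEF, a 31.1-fold difference (log2 fold change 4.96, SE 0.29, edgeR adjusted p = 1.24e-05). PEF replicate 1 was the lowest of the PEF libraries but still far above SEF. Of the TPM summed over the 4 Gli genes, *gli2b* held 3.14% to 3.59% in SEF and 24.98% to 34.5% in PEF. The share of *gli2a* was 65.6% to 68.0% in SEF and 46.6% to 52.8% in PEF, and that of *gli3* was 28.7% to 30.6% in SEF and 18.9% to 22.2% in PEF. The summed Gli level was 30.4 ± 4.13 TPM in SEF and 101 ± 12.3 TPM in PEF (SD, n = 3 each). Paralogs such as *gli2a* and *gli2b* can share reads. In the counts, multimapping reads were listed apart and belong to no gene. How the TPM treated such reads is not given in the sources used here.

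**Figure D3:**
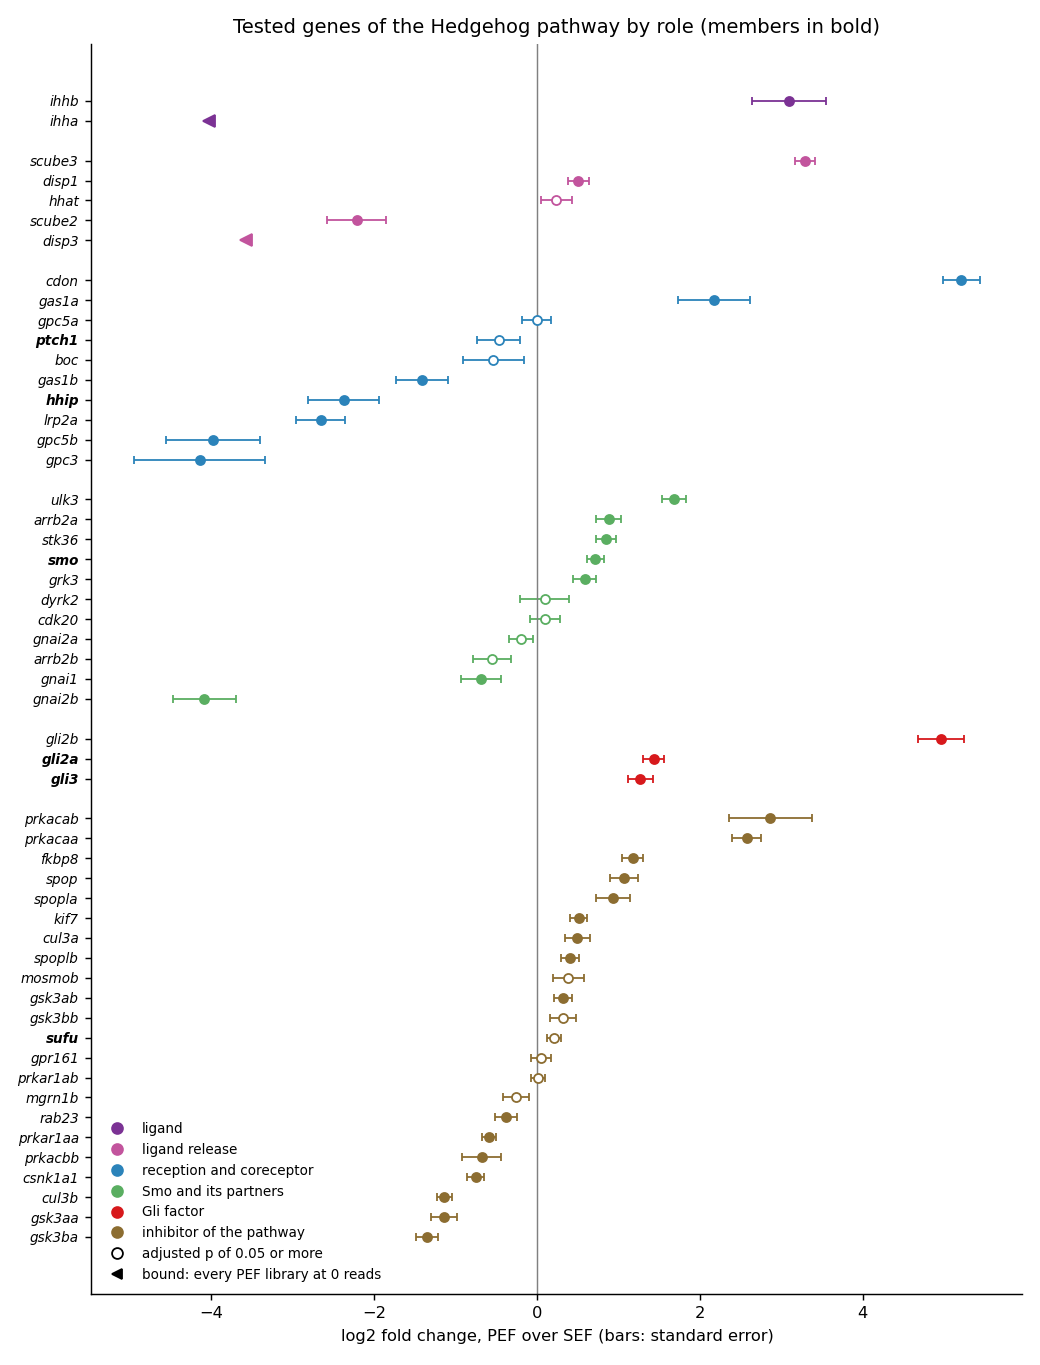
Log2 fold change, PEF over SEF (horizontal axis), of the tested genes of the 6 role lists, with standard errors and without the genes not reported here. Filled points passed the edgeR threshold, open points did not, triangles are bounds for genes with 0 reads in every PEF library, and genes of the 9 names are in bold; *cdon* and *gli2b* lie farthest to the right.

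*sufu* (ENSAMXG00000016961), which encodes the cytoplasmic inhibitor that holds Gli proteins back, had the smallest fold change of the 6 tested genes. It was measured at 35.4, 36.1 and 36.2 TPM in SEF and at 42.3, 36.0 and 38.2 TPM in PEF, and the TPM values of the lines overlapped. In CPM they did not overlap, at a log2 fold change of 0.21 (SE 0.09, edgeR adjusted p = 0.0657, unadjusted p = 0.0434). A difference was therefore not called, and a small one is not shown to be absent. Relative to *gli2a*, *sufu* lay at 1.55-fold to 1.99-fold its TPM in SEF and 0.673-fold to 0.912-fold in PEF, so their order changed between the lines.

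Other inhibitors and turnover genes of the pathway were called in both directions. Of 24 tested rows, *sufu* among them, 18 were called (75.0%, beside 63.5% of all genes), 11 higher and 7 lower in PEF, and the median log2 fold change was 0.32. *prkacaa*, a catalytic subunit of protein kinase A, which phosphorylates Gli proteins, had 55 to 59 reads in SEF and 289 to 412 in PEF (log2 fold change 2.58, SE 0.18, edgeR adjusted p = 2.52e-05). *gsk3ba*, a kinase that acts after protein kinase A in Gli processing, was lower in PEF, at 43.6 ± 4.38 TPM in SEF and 15.7 ± 1.51 TPM in PEF (SD, n = 3 each, log2 fold change -1.35, edgeR adjusted p = 0.000165). *fkbp8*, which limits the pathway in the mouse neural tube, was 2.26-fold higher in PEF (log2 fold change 1.18, edgeR adjusted p = 0.000219). The ciliary receptor gene *gpr161* had a log2 fold change of 0.05 at an edgeR adjusted p of 0.760 and the ciliary kinesin gene *kif7* one of 0.51 (edgeR adjusted p = 0.00324), both named after their values were seen.

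Genes of ciliary transport and of the transition zone, on which vertebrate Hedgehog signaling depends, had reads in both lines for all rows but *arl3*, which had 13, 15 and 17 reads in SEF and 0 in PEF and is named after its values were seen. A row of similar symbol, *arl3a*, also named after its values were seen, differed little (log2 fold change -0.27, edgeR adjusted p = 0.0281). The 48 rows of the list summed to 434 to 495 TPM in SEF and 531 to 587 TPM in PEF, and all passed the filter on low counts. Of these, 29 were called (60.4%, beside 63.5% of all genes), 20 higher and 9 lower in PEF, with a median log2 fold change of 0.32. The heavy chain of the motor for return transport, *dync2h1*, had 1500, 1547 and 1382 reads in SEF and 356, 383 and 325 in PEF, 4.16-fold lower in PEF (log2 fold change -2.06, SE 0.13, edgeR adjusted p = 1.67e-05). *bbs9*, a subunit of the BBSome that carries membrane proteins out of cilia, was 7.82-fold lower in PEF (log2 fold change -2.97, SE 0.13, edgeR adjusted p = 5.02e-06). *kifap3b*, a subunit of the outward motor, was lower by a log2 fold change of -2.85 (SE 0.35, edgeR adjusted p = 0.000335), while its paralog *kifap3a*, named after its values were seen, was more abundant in both lines and was not called (log2 fold change 0.33, edgeR adjusted p = 0.0591). The transition zone gene *tmem216* was higher in PEF, with 69 to 73 reads in SEF and 323 to 438 in PEF (log2 fold change 2.37, SE 0.22, edgeR adjusted p = 9.01e-05).

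**Figure D4:**
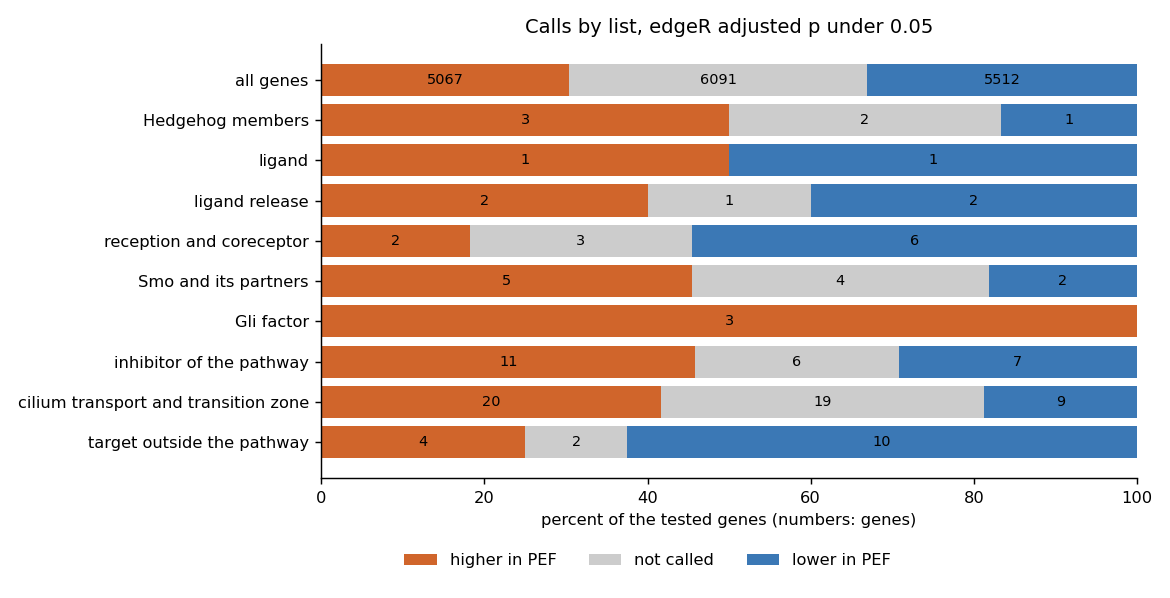
Share of the tested genes of each list that were called higher in PEF, not called or called lower in PEF (horizontal axis, percent of tested genes; numbers in the bars are genes), at an edgeR adjusted p under 0.05. The top bar is the background of all 16670 tested genes, of which 33.1% were called lower and 30.4% higher in PEF. Of 16 tested targets outside the pathway, 10 were called lower and 4 higher. With at least 10 reads required in every library, 10 were tested and 4 were called in each direction.

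Over the 6 role lists together (all but the cilium and target lists), 56 genes were tested and 42 were called, 24 higher and 18 lower in PEF. That is 75.0% beside 63.5% of all tested genes, and the median log2 fold change was 0.15.

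Genes that lie downstream of Hedgehog signaling, or in feedback with it, in some vertebrate tissue were called in both directions. Of 26 genes of this list with a row, 16 were tested and 14 were called, 10 lower and 4 higher in PEF, beside 33.1% lower and 30.4% higher among all tested genes, and 10 rows had too few reads to be tested. With at least 10 reads required in every library, 8 of 10 were called, 4 in each direction, beside 7700 of 13388 of all genes. The median log2 fold change was -2.63, and -2.36 with the genes at 0 reads in PEF set to their bounds. Filtering favors genes that are high in at least 1 line, so these counts do not stand for the whole list, and most of these genes answer to other signals as well.

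The forkhead genes of mesenchyme carried the largest differences. *foxf1*, which is induced by Hedgehog in gut and lung mesenchyme, had 2379, 3058 and 1813 reads in SEF and 0, 0 and 3 in PEF. From summed reads this is 2402-fold higher in SEF (exact 95% interval 822 to 11649, counting error only, edgeR adjusted p = 5.93e-06). Its relative *foxf2b* had 745, 737 and 552 reads in SEF and 0, 1 and 0 in PEF. *foxd1*, known from kidney stroma and facial mesenchyme, had 720, 853 and 805 reads in SEF and 0 in PEF, at least 263-fold lower in PEF with the floor of 3 reads per library (edgeR adjusted p = 5.46e-06). *hand2*, a factor of limb, heart and branchial arch mesenchyme that is tied to *shh* by feedback in the limb, had 471, 491 and 491 reads in SEF and 2, 0 and 0 in PEF. All genes of this paragraph passed the filter on low counts only through their SEF reads, and were picked for the size of their change. None was tested where at least 10 reads were required in every library.

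*osr1* and *osr2*, mesenchymal zinc finger genes, are named here after their values were seen because they moved in opposite directions. *osr1* was at 5.55 ± 2.17 TPM in SEF and 143 ± 26.3 TPM in PEF, and *osr2* at 34.3 ± 16.2 TPM in SEF and 2.10 ± 0.701 TPM in PEF (SD, n = 3 each). Their log2 fold changes were 4.79 and -3.95 (edgeR adjusted p = 4.01e-05 and 0.000285). Both cyclin D genes of the list, also named after their values were seen, which drive the G1 phase of the cell cycle, were higher in PEF, *ccnd1* by a log2 fold change of 0.95 and *ccnd2a* by 0.72 (edgeR adjusted p = 0.00116 and 0.000253). *foxa2*, *nkx2.2b*, *nkx6.1* and *olig2*, which mark ventral neural tube under Hedgehog control and are also named after their values were seen, had at most 1 read in a library.

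**Figure D5:**
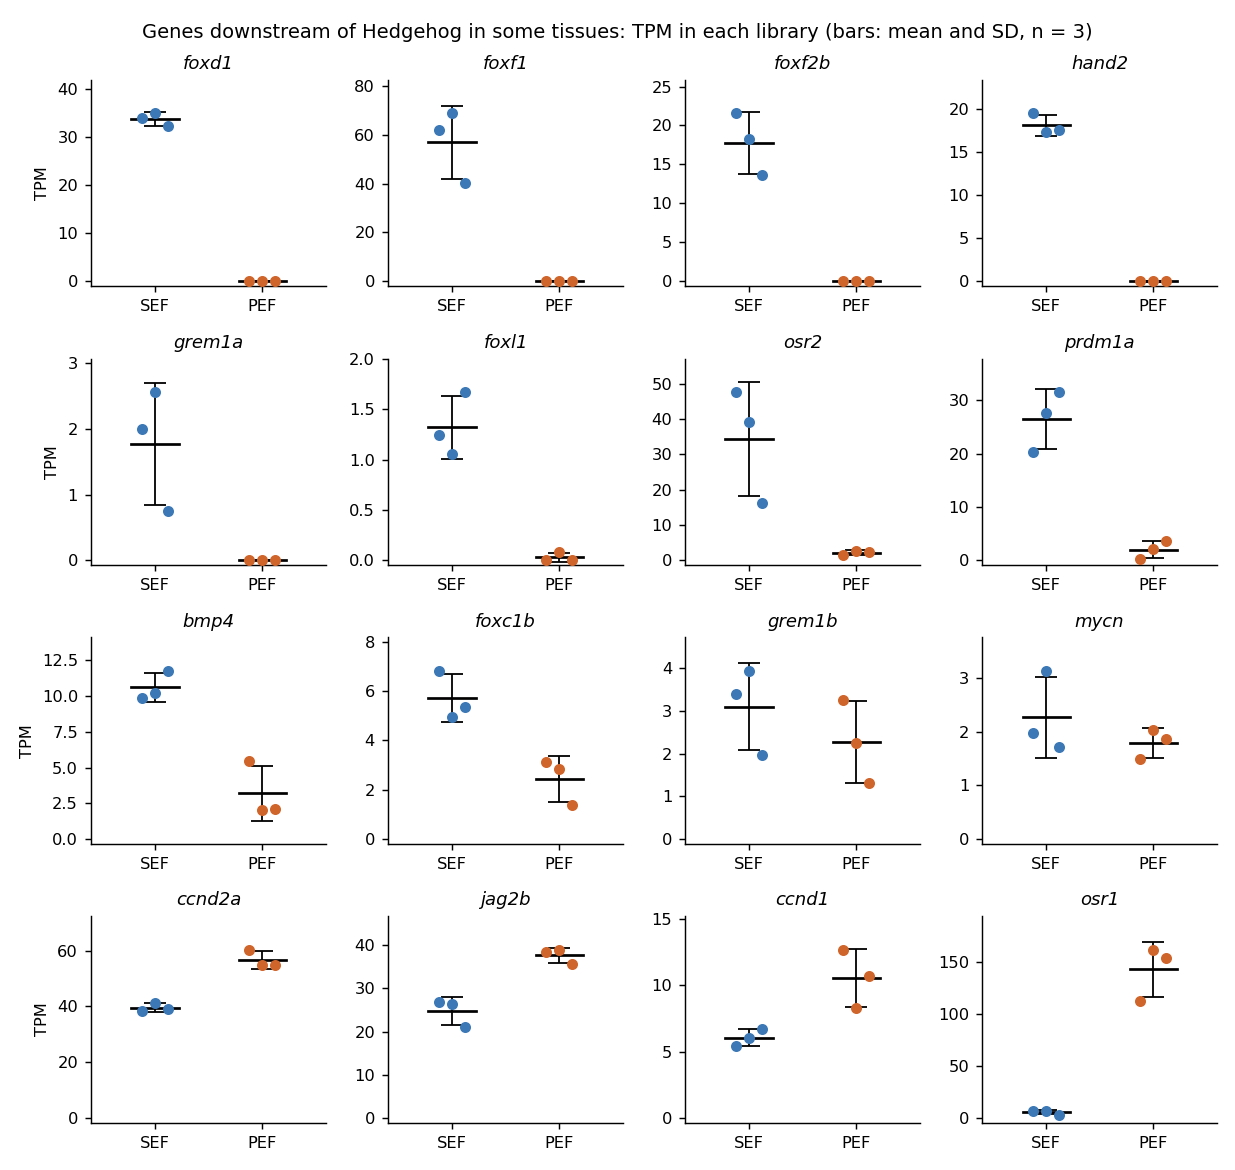
TPM (vertical axis, linear, a separate scale for each gene) of the 16 tested genes downstream of Hedgehog in some tissues, in the 3 SEF and 3 PEF libraries. Points are libraries, bars are the mean and SD (n = 3), and genes are ordered from the lowest to the highest log2 fold change. The first 10 were called lower in PEF, *grem1b* and *mycn* were not called, and the last 4 were called higher. Of all tested genes, 33.1% were called lower and 30.4% higher.

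Ranked by mean TPM, the 8 genes had nearly the same order in both lines. In SEF it was *sufu*, *gli2a*, *gli3*, *smo*, *ptch1*, *hhip*, *gli1* and *shhb*, where the libraries of *gli3* and *smo* overlapped, as did those of *gli1* and *shhb*. In PEF *gli2a* came before *sufu* and the rest kept their places, and only *gli1* and *shhb* overlapped. *sufu* lay at or above 89.3% of all listed genes in SEF and 90.5% in PEF, *gli2a* at or above 83.3% and 92.1%, and *ptch1* at or above 61.6% and 59.1%. The step from *ptch1* down to *hhip* was the widest, 23.3-fold in SEF and 66.5-fold in PEF.

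Libraries with much *ptch1* also had much RNA of *ckmb*, *XRCC2* and *plk4*, the named genes of at least 1 TPM whose log2 CPM were most like those of *ptch1* over the 6 libraries, at Pearson similarities of 0.993, 0.991 and 0.991. They were picked as the highest of 11641 genes, 408 of which exceeded 0.9. For *hhip* the most similar genes were *btbd2b*, *gys1* and *ap2a1*, each at 0.996 or 0.997, and 1969 genes exceeded 0.9. Points of such a comparison share the line they come from, so the values describe these libraries only. *ptch1*, *ckmb*, *XRCC2* and *plk4* were not called between the lines (edgeR adjusted p = 0.157, 0.0704, 0.182 and 0.262). *ptch1* had its fewest reads, 329, in PEF replicate 1, the library that stood apart. The part of that library in the similarities was not tested.

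Genes next to the 7 Hedgehog genes with a place in the RefSeq table of assembly AstMex3_surface were called about as often as genes elsewhere. Of the 2 nearest named genes on each side, 26 were tested and 14 were called (53.8%, beside 63.5% of all genes). Next to *gli2a*, *gli3* and *smo*, 4 of 12 neighbors were called higher in PEF, as those genes were, and 3 were called lower. The neighbors of *gli2a*, for example, had log2 fold changes of -0.66 for *ralba*, 0.16 for *si:dkey-3d4.3*, 0.46 for *clasp1a* and -0.31 for *nifk*, where that of *gli2a* was 1.43.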

How the data were processed

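RNA of 3 SEF and 3 PEF libraries was sequenced from TruSeq Stranded mRNA libraries. The deposited table of raw read counts per gene and the deposited table of TPM were made by the authors with STAR 2.7.3a and RSEM, per the submitters' processing notes. The genome build, annotation and strand setting used for these libraries are not given in the sources used here, so genes that overlap on opposite strands or have close paralogs are uncertain. Rows for reads assigned to no gene (29.3% to 31.7% without a feature, 4.28% to 4.67% multimapping, 4.26% to 5.05% unmapped and 0.142% to 0.198% ambiguous) were left out of library sizes.

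Counts were normalized by TMM, filtered with filterByExpr and tested with edgeR 4.0.16 (glmQLFit, glmQLFTest) in R 4.3.3, with Benjamini-Hochberg adjustment over all tested genes and a threshold of 0.05. The standard error is the absolute log2 fold change over the square root of F. Levels are compared between genes only in TPM. Where all libraries of a line had 0 reads, folds are bounds with 3 reads per library, and with 1 to 3 reads in a library of a nearly empty line, ratios of summed reads carry exact (Clopper-Pearson) 95% intervals, which cover counting error only. P-values measure only the spread between these libraries. The paper's caption of a heat map over several cell types, both lines among them, speaks of independent biological replicates. It does not say how cultures of 1 line were kept apart, so the spread may still be technical in part or whole. The procedure was tested on simulated data.

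Alternatives were DESeq2 1.42.0, upper-quartile scaling, other filters, limma 3.58.1 on log2(TPM + 1) and log2(TPM + 0.1), a test against a 2-fold change (log2 of 1), a replicate block and leaving out each library. The pathway genes and the gene lists were chosen with earlier results of these data known. Of each wider list, the text names the called genes with the 4 largest absolute log2 fold changes among those that averaged 100 reads or more in the line where they were higher and whose libraries did not overlap, and all genes of lists with fewer than 6 tested. For *ptch1* and *hhip*, it names the 3 genes of at least 1 TPM on average with the highest Pearson similarity. Other names were chosen after their values were seen. That is said beside them, except for cell type markers named singly, such as *epcam*, and for genes named only in a caption. Neighboring genes were taken by symbol from the RefSeq table of AstMex3_surface. Results for some genes that the rule would name are not reported here, although the counts over lists include them.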

Additional observations from a re-analysis of the deposited data

How the results depend on the processing

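*gli2a*, *gli3* and *hhip* kept their call and direction in every alternative that tested them, and *smo* in all but the test against a log2 fold change of 1, where its edgeR adjusted p was 1.0. In that test *gli3* kept its call only narrowly, at an edgeR adjusted p of 0.0498. The log2 fold changes ranged from 1.23 to 1.52 for *gli2a*, 1.11 to 1.40 for *gli3*, 0.59 to 0.77 for *smo*, and -2.62 to -0.17 for *hhip*, the last on the log2(TPM + 1) scale, which compresses low genes. Without a filter on low counts, 6 of 8 tested genes sought were called, beside 11808 of 23769 of all genes. There *gli1* and *shhb* joined (edgeR adjusted p = 0.00300 and 0.0285). With limma on unfiltered log2(TPM + 1), 5 of 8 were called, beside 11496 of 23769, and *shhb* was not (limma adjusted p = 0.105). With at least 10 reads in every library, 3 of 5 were called, beside 7700 of 13388. Limma on filtered log2(TPM + 1) or log2(TPM + 0.1) also called 3 of 5, beside 9079 or 9005 of 14593. *hhip* was not tested with that count filter or with limma on filtered TPM. With each library left out, 4 of 6 or 5 of 7 tested genes sought were called. Of all genes, calls ranged from 9289 of 16966 (without SEF replicate 2) to 10968 of 17201 (without PEF replicate 1). In the lists, 3 of 3 or 4 of 4 Gli, 6 to 7 of 11 Smoothened, 23 to 28 of 48 cilium and 13 to 18 of 24 inhibitor genes were called. The same held for 2 of 2 ligand, 4 of 5 release, 8 to 9 of 11 reception and 14 of 16 or 15 of 17 target genes.

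With at least 10 reads in every library, fewer genes were tested, and 7700 of 13388 of all genes were called. Calls fell to 0 of 0 for ligands, 2 of 3 for release, 2 of 5 for reception and 8 of 10 for targets. With limma on filtered log2(TPM + 1) or log2(TPM + 0.1), release had 2 of 3 and reception 3 of 6, beside 9079 or 9005 of 14593 of all genes. Against a log2 fold change of 1, 5103 of all 16670 tested genes were called in place of 10579. In the lists, 2 of 11 Smoothened, 3 of 24 inhibitor and 10 of 48 cilium genes were called. *disp1*, *gas1b*, *arrb2a*, *stk36* and *fkbp8* were among the genes that lost their call. *disp1* also lost it with limma on unfiltered log2(TPM + 1) (adjusted p = 0.0722). Same-numbered libraries did not deviate together more than others (r = -0.04, 0.07 and -0.13, against -0.15 to 0.15 for the other pairs). With 3 libraries per line, these values cannot decide whether the numbers pair them. With the replicate block, 9735 of 16670 of all genes and 4 of 6 tested genes sought were called. Low read counts limited *shhb*, *gli1* and *hhip*, and no result reversed.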

Other observations

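Of the genes outside the lists whose names resemble those of Patched and Hhip, *ptchd4* and *HHIPL1* are named here after their values were seen. *ptchd4*, whose product is related to Patched, had 6, 16 and 3 reads in the SEF libraries, and 213, 356 and 412 in those of PEF. Its level was 0.0600 ± 0.0529 TPM in SEF and 2.25 ± 0.586 TPM in PEF (SD, n = 3 each), and the log2 fold change was 5.28 (SE 0.48, edgeR adjusted p = 9.02e-05). *HHIPL1*, a relative of *hhip*, had 200, 199 and 351 reads in SEF and 41, 43 and 64 in PEF. Its level was 1.75 ± 0.522 TPM in SEF and 0.330 ± 0.0889 TPM in PEF (SD, n = 3 each), and the log2 fold change was -2.33 (SE 0.30, edgeR adjusted p = 0.000481). For both genes, all PEF libraries lay on the same side of all SEF libraries, as they did for 70.8% of all tested genes. *ptchd4* passed the filter on low counts only through its PEF reads.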
